A study of Homo sapiens with 6 samples.

Results

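The genes described here are 10 human genes that are expressed from a single parental copy in at least some tissues: PEG3, PEG10, H19, MEG3, DLK1, GRB10, PLAGL1, NDN, MEST and NNAT. They were taken by symbol from the 21625 genes of the CPM table (read counts of a gene scaled per library). They were chosen by their measured values in the same comparison of CREM siRNA with control siRNA that is given below. Their differences are thus a description and carry no p-value. Of the 10 genes, 8 have a row, 4 have no more than 6 reads in any library, and 4 (PEG3, PEG10, GRB10 and PLAGL1) reached the mean of 1 RPKM (the CPM divided by the length of the gene) that was needed to enter the fit over all genes. Expression of H19 and DLK1 was not analysed here. Which parental copy a read came from was not measured.

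The study asked which genes depend on EWSR1::CREM, a fusion protein that joins part of the RNA-binding protein EWSR1 to the DNA-binding part of the cAMP-responsive factor CREM. CHL-1 is an established melanoma cell line that carries the fusion, and it was the sole line sequenced. In the control group, 3 libraries came from cells given 50 nM of a mix of non-targeting siRNAs, and in the CREM siRNA group, 3 came from cells given 50 nM of a pool of siRNAs against the DNA-binding part of CREM, which silences the fusion and wild-type CREM alike. RNA was taken after 48 h and sequenced as stranded mRNA libraries. The methods give a medium with fetal bovine serum, and the RPKM column headers of both groups hold the word serum. The labels do not say that the 3 libraries of a group came from separate cultures, while the methods speak of triplicate experiments, so the p-values measure the spread between these libraries.

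Genomic imprinting is the silencing of the maternal or the paternal copy of a gene by DNA methylation laid down in the germ line and kept through every later cell division. Imprinted genes lie in clusters that share a control region, and a cluster often holds protein-coding genes next to long noncoding RNAs. Many of them steer growth of the fetus and placenta, and loss or gain of imprinting is common in tumours.

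The siRNA target and the depth were checked before the imprinted genes. Libraries held 17221794 to 29793837 reads, and CREM fell from 45.4 ± 1.75 to 2.55 ± 0.169 RPKM (SD, n = 3 each), a log2 difference of -3.71 with adjusted p = 3.43e-12 in limma. Of 12407 genes tested, 73.4% passed an adjusted p of 0.05 (limma, Benjamini-Hochberg), 36.6% as higher and 36.7% as lower with CREM siRNA, and in 76.2% the 3 values of each group did not overlap. With the scaling of the deposited values, the median log2 difference over all genes was 0.00. It became 0.17 when libraries were scaled by GAPDH and 0.31 when scaled by other reference genes. This turned the share of higher among called genes from 49.9% to 66.2% and 75.0%. The reference genes are not stable either, since 9 of the 15 on that list fell and 4 rose. GAPDH itself was at 827 ± 21.7 and 724 ± 60.3 RPKM (SD, n = 3 each). All 5 proliferation markers fell, among them MKI67 from 24.3 to 1.97 RPKM (log2 difference -3.09, adjusted p = 2.3e-11 in limma), and their part in the values below was not tested. Of 8 melanocyte markers 5 were tested and 4 rose, with SOX10 at 303 and 483 RPKM. The pigment genes MLANA and TYR had reads only in library 3 of either group, and PMEL overlapped between the groups, as given below. Of 5 markers of the undifferentiated melanoma state 3 were tested, of which 1 rose and 2 fell. Of 5 leukocyte markers 4 had a row and 0 reached a mean of 1 RPKM over the 6 libraries, but PTPRC, the common leukocyte antigen, was at 1.28 ± 0.0912 RPKM with control siRNA and at 0.114 ± 0.0274 RPKM with CREM siRNA (SD, n = 3 each). CD3E was at 0 in every library, CD14 and ITGAM were at no more than 0.140 RPKM, and the part of PTPRC in the values below was not tested. Of 6 epithelial markers 1 reached that mean, and it fell. As in any bulk library, fewer cells of a kind and less RNA per cell cannot be told apart.

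CREM and its fusion bind the cAMP response element, the palindrome TGACGTCA, or its core TGACG. The core was therefore looked for on both strands (TGACG or CGTCA) in the RefSeq promoter windows of GRCh38.p14, which run from 250 bases before to 50 bases after a gene start; the palindrome holds 2 overlapping cores. Of 35097 windows of 27305 genes, 24.5% hold a core and 1.85% hold the palindrome. Windows were found for 6 of the 10 genes (GRB10, H19, MEG3, MEST, NDN and PLAGL1), 20 windows in all, of which 7 hold a core and 3, all of MEG3, hold the palindrome. These are not separate sites, since the 3 MEG3 windows overlap and hold the same palindrome, and the 2 MEST windows with a core hold the same core. PEG3, PEG10, DLK1 and NNAT had no entry. The windows below are shown because they hold the letters for a gene that was at 0, for a gene that was only a little lower, and for a gene of low level; capitals mark the cores. The MEG3 window is chr14:100825858-100826157 on the plus strand, that of GRB10 chr7:50782847-50783146 on the minus strand, and that of PLAGL1 chr6:144008210-144008509 on the minus strand.
MEG3: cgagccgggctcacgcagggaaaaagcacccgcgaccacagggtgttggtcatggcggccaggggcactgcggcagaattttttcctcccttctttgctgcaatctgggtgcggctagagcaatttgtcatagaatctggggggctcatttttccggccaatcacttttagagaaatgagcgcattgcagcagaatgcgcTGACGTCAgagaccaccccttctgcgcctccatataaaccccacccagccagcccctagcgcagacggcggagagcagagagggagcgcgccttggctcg
GRB10: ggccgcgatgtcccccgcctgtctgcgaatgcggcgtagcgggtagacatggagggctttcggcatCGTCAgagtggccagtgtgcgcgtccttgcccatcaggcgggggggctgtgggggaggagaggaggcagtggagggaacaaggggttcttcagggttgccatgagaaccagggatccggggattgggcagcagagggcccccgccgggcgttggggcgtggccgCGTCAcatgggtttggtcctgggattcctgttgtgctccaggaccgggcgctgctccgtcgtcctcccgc
PLAGL1: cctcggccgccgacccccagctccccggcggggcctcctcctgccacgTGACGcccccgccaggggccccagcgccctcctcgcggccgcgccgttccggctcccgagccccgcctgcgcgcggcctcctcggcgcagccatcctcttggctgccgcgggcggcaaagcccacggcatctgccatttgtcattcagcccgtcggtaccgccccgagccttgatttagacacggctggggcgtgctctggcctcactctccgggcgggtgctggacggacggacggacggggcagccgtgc

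The palindrome of MEG3 begins at position -50 relative to the start, the cores of GRB10 at -184 and -20, and that of PLAGL1 at -202. GRB10 and PLAGL1 have 5 windows each, and a core is in 1 of the 5 for either gene. The windows of GRB10 hold 3 to 49 CpG dinucleotides, those of PLAGL1 2 to 39 and those of MEG3 17 to 19, beside a median of 14 over all windows. A match of letters describes the window and says nothing of binding in CHL-1 cells.

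PEG3 encodes a large zinc finger protein with a SCAN domain that is made from the paternal copy and acts as a transcriptional repressor. The gene lies on the minus strand at chr19:56810082-56840726 (RefSeq, GRCh38.p14). Control libraries 1 to 3 held PEG3 at 165, 160 and 150 CPM, and CREM siRNA libraries 1 to 3 at 36.8, 34.5 and 32.1 CPM. Every library with CREM siRNA was far below every control library, and the spread within a group was small beside the gap. These values rest on 2853, 3914 and 3566 reads with control siRNA and on 1089, 842 and 799 reads with CREM siRNA. Per length, PEG3 went from 17.5 ± 0.827 to 3.82 ± 0.261 RPKM (SD, n = 3 each), which is 4.59-fold lower, and on the log2(RPKM + 1) scale of the fit the difference was -1.94 with a standard error of 0.0618. It ranked 353 from the lowest difference among the 12407 genes. In the 19 other settings tried its difference stayed between -2.21 and -1.64.

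PEG10 is a paternally expressed gene that descends from a retrotransposon, keeps a viral-type frameshift, and is needed for the placenta in mice. It lies at chr7:94656325-94669695 on the plus strand. It was measured at 145, 143 and 132 RPKM in the control siRNA libraries 1 to 3, and at 13.4, 13.4 and 12.9 RPKM in the CREM siRNA libraries 1 to 3. PEG10 was the highest of the 8 genes with a row in controls, at 140.0 ± 6.59 RPKM (SD, n = 3) and rank 355 by level among all genes, where PEG3 ranked 3873. With CREM siRNA it was at 13.2 ± 0.259 RPKM (SD, n = 3), which is 10.6-fold lower. The log2 difference was -3.31 with a standard error of 0.0490, rank 47 from the lowest, and over the other settings it lay between -3.41 and -2.97. Over all genes, 332 had a difference at or below -2 and 78 at or below -3.

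The levels of PEG10 and PEG3 did not keep their proportion. The ratio of their RPKM was 7.94, 8.05 and 7.97 in the control siRNA libraries and 3.28, 3.52 and 3.64 in the CREM siRNA libraries. It went from 7.99 ± 0.0545 to 3.48 ± 0.184 (SD, n = 3 each), so PEG10 lost the larger share of its RNA. Both genes were chosen on this comparison, so the ratio restates their falls and is a description. GRB10 stood above PEG3 in both groups and PEG10 above GRB10 in controls alone, since with CREM siRNA GRB10 was the highest of the 4.

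**Figure D1:**
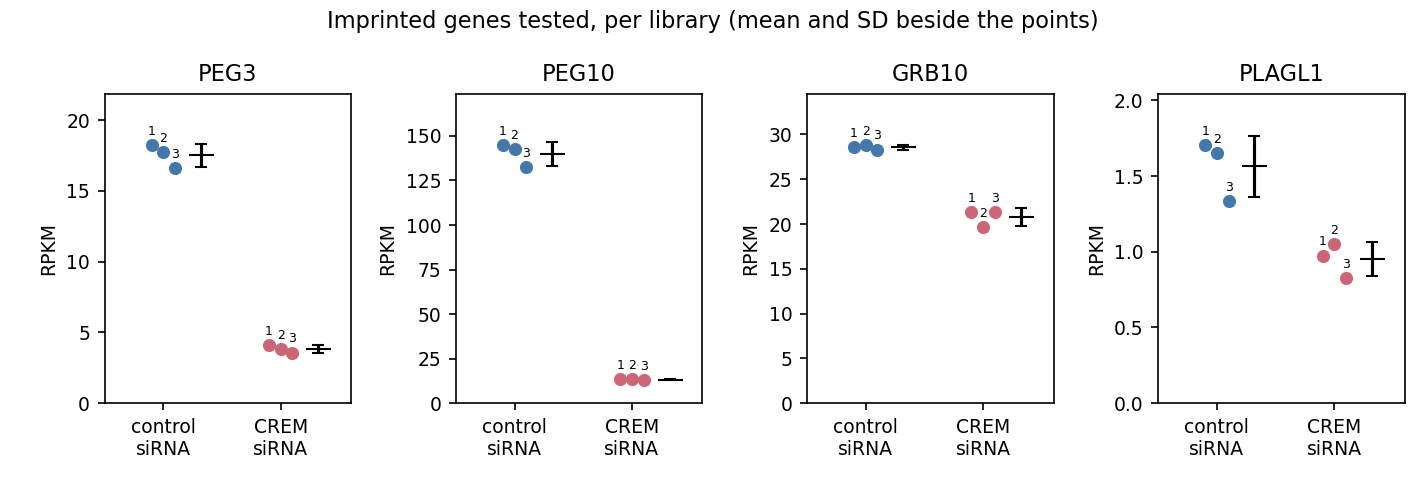
Level of the 4 imprinted genes that were tested, in RPKM on linear axes from 0, for each control siRNA library (blue) and each CREM siRNA library (red), numbered by replicate, with the group mean and SD beside the points (n = 3). PEG10 drops from 140.0 to 13.2 RPKM and PEG3 from 17.5 to 3.82 RPKM, while GRB10 and PLAGL1 keep 72.8% and 60.8% of the control level.

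GRB10 encodes an adaptor that binds the activated insulin and IGF1 receptors and dampens their signal, and its imprint depends on tissue and promoter. It lies at chr7:50590068-50793453 on the minus strand. It was at 28.6, 28.8 and 28.3 RPKM in the control siRNA libraries 1 to 3 and at 21.3, 19.7 and 21.3 RPKM in the CREM siRNA libraries 1 to 3. The groups did not overlap, and the level with CREM siRNA was 72.8% of control. The means were 28.6 ± 0.265 and 20.8 ± 0.966 RPKM (SD, n = 3 each), and the log2 difference was -0.44 with a standard error of 0.0491. This was -0.25 when scaled by GAPDH and -0.10 when scaled by the other reference genes, where it no longer passed the threshold.

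PLAGL1 encodes a zinc finger factor that restrains growth and is made from the paternal copy, and it lies at chr6:143940300-144064599 on the minus strand. It was at 1.70, 1.65 and 1.33 RPKM in the control siRNA libraries 1 to 3 and at 0.973, 1.05 and 0.827 RPKM in the CREM siRNA libraries 1 to 3. The groups did not overlap, although the control library 3 came nearest to the CREM siRNA library 2. The counts behind them were 85 to 167 reads per library, the fewest among the 4 genes. The means were 1.56 ± 0.200 and 0.950 ± 0.113 RPKM (SD, n = 3 each), or 60.8% of control. PLAGL1 thus passed the filter of 1 RPKM only through the control libraries. The log2 difference of -0.39 (standard error 0.0822) is made small by the pseudocount of 1, since it was -0.66 with a pseudocount of 0.1 and -0.71 in edgeR on whole reads, and it was -0.20 when scaled by the reference genes.

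All 4 tested genes were thus among the genes called lower and did not overlap between groups, beside 36.7% and 76.2% of all genes tested, but they were chosen on this comparison and nothing is read from that count. By rank from the lowest difference, PEG10 was at 47, PEG3 at 353, GRB10 at 2718 and PLAGL1 at 2958. The 5% quantile of all genes lay at -1.47 and the 25% quantile at -0.37. Thus PEG10 and PEG3 stand in the lower tail, while GRB10 and PLAGL1 stand near the 25% quantile. The place of PLAGL1 depends on the pseudocount of 1. In edgeR PLAGL1 was at -0.71 and GRB10 at -0.46, so PLAGL1 was the lower of them.

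**Figure D2:**
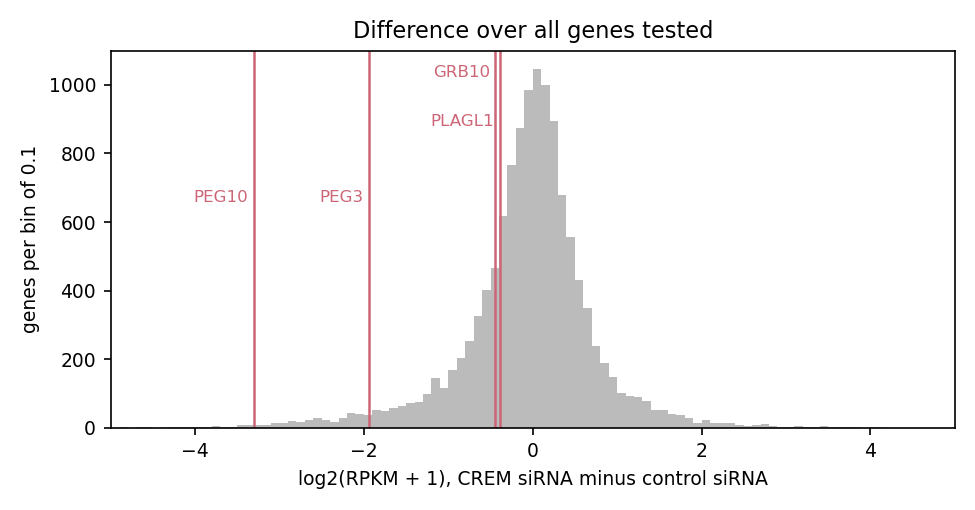
Histogram of the log2(RPKM + 1) difference, CREM siRNA minus control siRNA, over the 12407 genes tested, in bins of 0.1, with red lines at the 4 imprinted genes; 10 genes beyond the plotted range are left out. PEG10 (-3.31) and PEG3 (-1.94) lie in the lower tail and GRB10 (-0.44) and PLAGL1 (-0.39) in the shoulder of the main peak. The difference of PLAGL1 is made small by the pseudocount of 1.

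The other 4 genes with a row were at or near 0 in these cells. MEG3, a maternally expressed long noncoding RNA with growth-restraining activity (chr14:100826108-100861026), had 0 reads in all 6 libraries. MEST, a paternally expressed member of the hydrolase fold family (chr7:130486175-130506465), and NNAT, a small membrane protein that binds the calcium pump of the endoplasmic reticulum (chr20:37521250-37523690), also had 0 reads in all 6 libraries. With 143675161 reads in all, 0 reads allow up to 0.0209 CPM over the 6 libraries and 0.101 to 0.173 CPM in a single one, counting error only. NNAT lies within the span of the gene BLCAP, and MEST overlaps parts of the noncoding MESTIT1 and of COPG2. The counter and the use of strand are not given. Reads of shared bases may thus have been left out or given to the other gene.

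NDN, a paternally expressed protein of the MAGE family that restrains cell division (chr15:23685400-23687305), had 0, 0 and 0 reads with control siRNA and 0, 1 and 6 reads with CREM siRNA in libraries 1 to 3. Its reads were too few for a fold change. The library with 6 of them also stood apart for pigment genes, and so did the control library 3. MLANA had 0, 0 and 14 reads in the control siRNA libraries and 0, 0 and 31 in the CREM siRNA libraries, and TYR had 0, 0 and 2 and then 0, 0 and 17. The part of these libraries in the NDN reads was not tested, and without the replicate 3 of both groups NDN has 1 read. With both left out, the log2 difference was -0.47 for GRB10 and -0.41 for PLAGL1, and those of PEG3 and PEG10 stayed within the ranges given above.

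PEG10 shares its control region with SGCE, which encodes a sarcoglycan of the muscle membrane and starts 192 bases away on the opposite strand. SGCE was at 16.7, 16.2 and 17.2 RPKM in the control siRNA libraries and at 13.0, 12.3 and 12.9 RPKM in the CREM siRNA libraries. It fell, by 0.37 on the log2 scale (standard error 0.0504, adjusted p = 6.04e-05 in limma), but not when scaled by GAPDH (-0.18, adjusted p = 0.0871) or by the other reference genes (-0.04, adjusted p = 0.541). PEG10 was measured at 8.68, 8.80 and 7.68 times the RPKM of SGCE with control siRNA, and at 1.03, 1.09 and 1.00 times with CREM siRNA. A ratio within a library does not depend on the scaling, and it went from 8.39 ± 0.614 to 1.04 ± 0.0457 (SD, n = 3 each). PEG10 was chosen on this comparison, so the ratio mostly restates its fall.

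The other tested genes of that imprinted domain moved little. PPP1R9A, a neuronal scaffold that binds actin and protein phosphatase 1, fell from 4.43 ± 0.172 to 3.34 ± 0.123 RPKM (SD, n = 3 each; log2 difference -0.32, adjusted p = 0.000601), and did not pass when scaled by GAPDH (-0.17, adjusted p = 0.130) or by reference genes (-0.05, adjusted p = 0.525). TFPI2, a secreted inhibitor of serine proteases, was at 4.20 ± 0.699 and 4.82 ± 1.06 RPKM (SD, n = 3 each), and its groups overlapped. Its log2 difference of 0.16 had an adjusted p = 0.333, and it passed with the replicate block (adjusted p = 0.0250) and when scaled by GAPDH (0.32, adjusted p = 0.00388) or by reference genes (0.44, adjusted p = 0.0127). CASD1, a sialic acid acetyltransferase gene whose annotated span overlaps that of SGCE, so that reads can be shared, rose by 0.41 (adjusted p = 4.32e-05 in limma).

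The neighbours of PEG3 in its domain had few reads. PEG3-AS1, a noncoding RNA that lies wholly within PEG3 and overlaps it by 1314 bases, had 9, 9 and 12 reads with control siRNA and 3, 3 and 5 reads with CREM siRNA. Its level was lower in every CREM siRNA library (0.353 ± 0.0637 and 0.108 ± 0.0399 RPKM, SD, n = 3 each), and its ratio to PEG3 was 0.0202 ± 0.00388 and 0.0288 ± 0.0126 (SD, n = 3 each), which overlap. The sources used here do not say if reads were assigned by strand, so its reads cannot be told apart from those of PEG3. ZIM2, a zinc finger gene that begins at the same base as PEG3 and spans it, had at most 4 reads in any library, and the noncoding MIMT1 had at most 2. ZIM2 overlaps PEG3 by 30645 bases on the same strand, so reads of the shared bases cannot be told apart. Its few reads thus do not show that it was silent.

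Genes around PEG3 and PEG10 outside the imprinted lists were looked at after values had been seen. Within 500 kb of PEG3, 13 genes were tested, of which 7 rose, 3 fell and 3 did not pass (76.9% called and 53.8% higher, beside 73.4% and 36.6% of all genes), with a median of 0.20. The lowest was ZFP28 (-0.75, adjusted p = 1.05e-06) and the highest ZNF667 (0.99, adjusted p = 8.73e-08), both zinc finger genes of the same cluster. Every tested neighbour lay above the PEG3 value of -1.94, as did almost all genes, since PEG3 ranked 353 from the lowest among 12407. Of the 3 falls, ZSCAN5A and ZNF71 were lost when scaled by GAPDH (adjusted p = 0.265 and 0.292) or by reference genes (0.908 and 0.960), and that of ZFP28 was kept. The call of ZSCAN5A was also lost without control library 2 or CREM siRNA library 1 (adjusted p = 0.0629 and 0.0688). That of ZNF470 was lost without control library 3 or CREM siRNA library 1 (0.0660 and 0.0707), and that of ZNF805 without control library 1 or CREM siRNA library 1 or 2 (0.0571, 0.0519 and 0.0631). Around GRB10 3 genes were tested, of which 0 rose and 2 fell, and around PLAGL1 5 were tested, of which 2 rose and 2 fell. DDC, 1 of the 2 falls around GRB10, passed the filter only through the control libraries (1.26 and 0.789 RPKM).

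**Figure D3:**
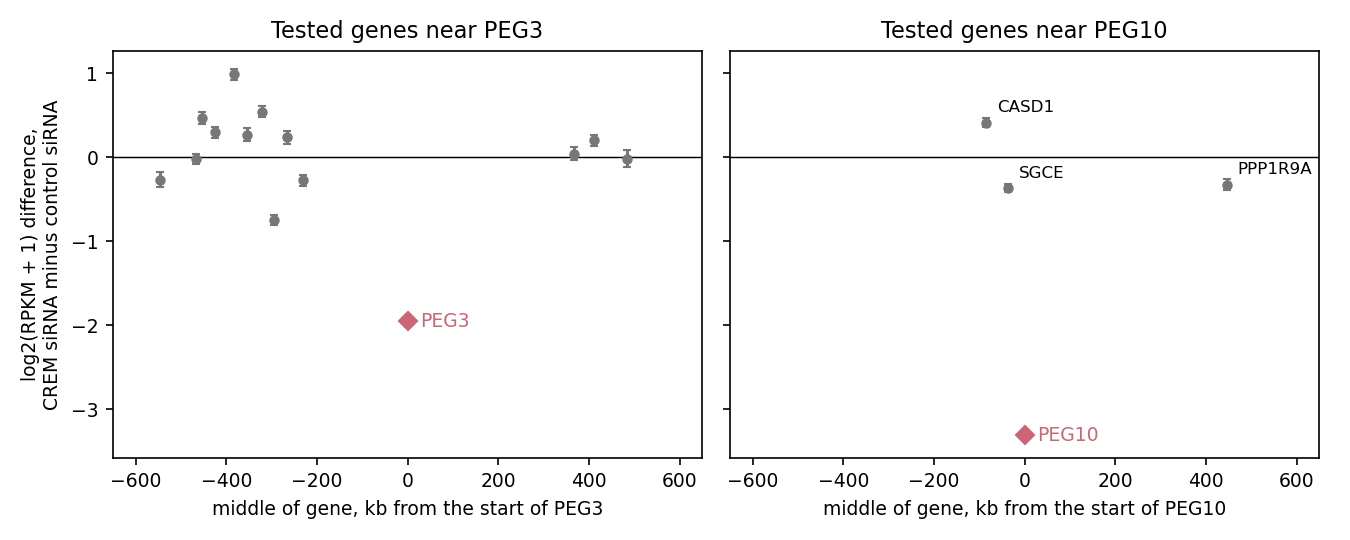
Difference in log2(RPKM + 1), CREM siRNA minus control siRNA, with its standard error, of every tested gene within 500 kb of PEG3 (left) and PEG10 (right), against the distance of the middle of the gene from the start of PEG3 or PEG10 in kb; negative distances are toward the lower chromosome position. The neighbours of PEG3 lie between -0.75 and 0.99 and those of PEG10 between -0.37 and 0.41, above the red diamonds of PEG3 (-1.94) and PEG10 (-3.31). PEG3 and PEG10 rank 353 and 47 from the lowest among the 12407 genes tested, so almost all genes lie above them.

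Domains whose leading gene had no reads still held expressed genes. BLCAP, which encodes a small growth-restraining membrane protein and surrounds NNAT, was at 16.3, 17.0 and 18.2 RPKM in the control siRNA libraries and at 28.3, 27.8 and 25.9 RPKM in the CREM siRNA libraries. It rose by 0.64 on the log2 scale (standard error 0.0565, adjusted p = 1.59e-06 in limma). COPG2, a coat protein of transport vesicles next to MEST, was at 13.6 ± 0.302 and 13.1 ± 1.02 RPKM (SD, n = 3 each; log2 difference -0.06, adjusted p = 0.419). Scaled by reference genes, COPG2 turned to 0.27 and passed as higher (adjusted p = 0.00312). CPA4, a carboxypeptidase gene of the same region, had 0, 0 and 1 reads with control siRNA and 24, 15 and 35 with CREM siRNA. Its groups did not overlap, at a level of no more than 0.499 RPKM.

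In the Prader-Willi domain, where NDN lies, 2 genes were tested and 1 passed. IPW, a paternally expressed noncoding RNA, was at 5.10 ± 0.271 and 4.45 ± 0.193 RPKM (SD, n = 3 each; log2 difference -0.16, adjusted p = 0.0358). That call was lost without the control library 2 or 3 (adjusted p = 0.0771 and 0.114), without the CREM siRNA library 1 or 2 (0.0585 and 0.120) and without both replicate 3 libraries (0.0999), and when scaled by GAPDH (adjusted p = 0.997), and the sign turned to 0.13 when scaled by reference genes. UBE3A, the ubiquitin ligase of Angelman syndrome that is expressed from the maternal copy in neurons, was at 16.8 ± 0.377 and 15.3 ± 0.796 RPKM (SD, n = 3 each; log2 difference -0.12, adjusted p = 0.0564). It passed without the CREM siRNA library 1 (-0.16, adjusted p = 0.0223), in edgeR (-0.13, adjusted p = 0.0385) and with the replicate block (adjusted p = 0.0300). UBE3A also passed as lower in the CPM table (-0.13, adjusted p = 0.0453) and when scaled by the median ratio (-0.13, adjusted p = 0.0354). Scaled by reference genes it turned to 0.21 and passed as higher (adjusted p = 0.00644). PWAR5, a noncoding RNA, had 21, 29 and 41 reads with control siRNA and 25, 33 and 48 with CREM siRNA.

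Over the whole list of 52 other imprinted genes, 42 had a row and 23 were tested, of which 5 rose, 10 fell and 8 did not pass. That is 65.2% called, beside 73.4% of all genes, and 43.5% lower, beside 36.7%. The median difference of the 23 was -0.12, beside 0.00 over all genes. Scaled by the reference genes, 12 rose and 5 fell, so the balance of the list depends on the scaling. Of the genes with a row, 13 had fewer than 10 reads in every library. By expressed copy, 6 paternally expressed genes were tested (1 rose and 3 fell), 3 maternally expressed ones (1 rose and 2 fell) and 14 whose imprint depends on tissue or isoform (3 rose and 5 fell).

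Outside the domains of the 10 genes, the falls of lowest adjusted p were those of PHLDA2, NAP1L5 and ZNF331. NAP1L5, a paternally expressed retrogene of the nucleosome assembly family, was at 30.7, 34.6 and 32.5 RPKM in the control siRNA libraries and at 7.23, 7.00 and 6.03 RPKM in the CREM siRNA libraries (log2 difference -2.12, standard error 0.0695, adjusted p = 5.09e-10). PHLDA2, a maternally expressed gene that restrains placental growth, was at 26.2, 26.3 and 27.2 RPKM and then at 2.68, 2.76 and 3.89 RPKM (log2 difference -2.76, standard error 0.0981, adjusted p = 2.79e-09). ZNF331, a zinc finger gene, fell from 2.39 ± 0.300 to 0.602 ± 0.0856 RPKM (SD, n = 3 each), and passed the filter only through the control libraries. This is 3.98-fold lower, and its log2 difference of -1.08 is made small by the pseudocount of 1. By this difference PHLDA2 and NAP1L5 lay below PEG3, and ZNF331 lay between PEG3 and GRB10.

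The rises of lowest adjusted p were those of NAA60, CDKN1C and HM13. NAA60, an acetyltransferase of the Golgi, rose from 15.9 ± 0.770 to 26.4 ± 0.514 RPKM (SD, n = 3 each; log2 difference 0.70, adjusted p = 3e-07). CDKN1C, the maternally expressed inhibitor of cyclin-dependent kinases that lies in the same domain as PHLDA2, was at 2.10, 2.25 and 2.97 RPKM and then at 5.12, 4.38 and 5.17 RPKM (log2 difference 0.78, standard error 0.0978, adjusted p = 2.78e-05). HM13, the signal peptide peptidase, rose from 62.3 ± 0.547 to 74.1 ± 4.03 RPKM (SD, n = 3 each; log2 difference 0.25, adjusted p = 0.00103). SLC22A18, a maternally expressed transporter gene of the domain of CDKN1C and PHLDA2 that was named after its values were seen, fell by 0.27 on the log2 scale (adjusted p = 0.0158), so 1 of the 3 maternally expressed genes tested in that domain rose and 2 fell. The SLC22A18 call was lost when scaled by GAPDH (-0.09, adjusted p = 0.441) and without CREM siRNA library 2 (adjusted p = 0.0671), and its sign turned to 0.06 when scaled by reference genes.

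**Figure D4:**
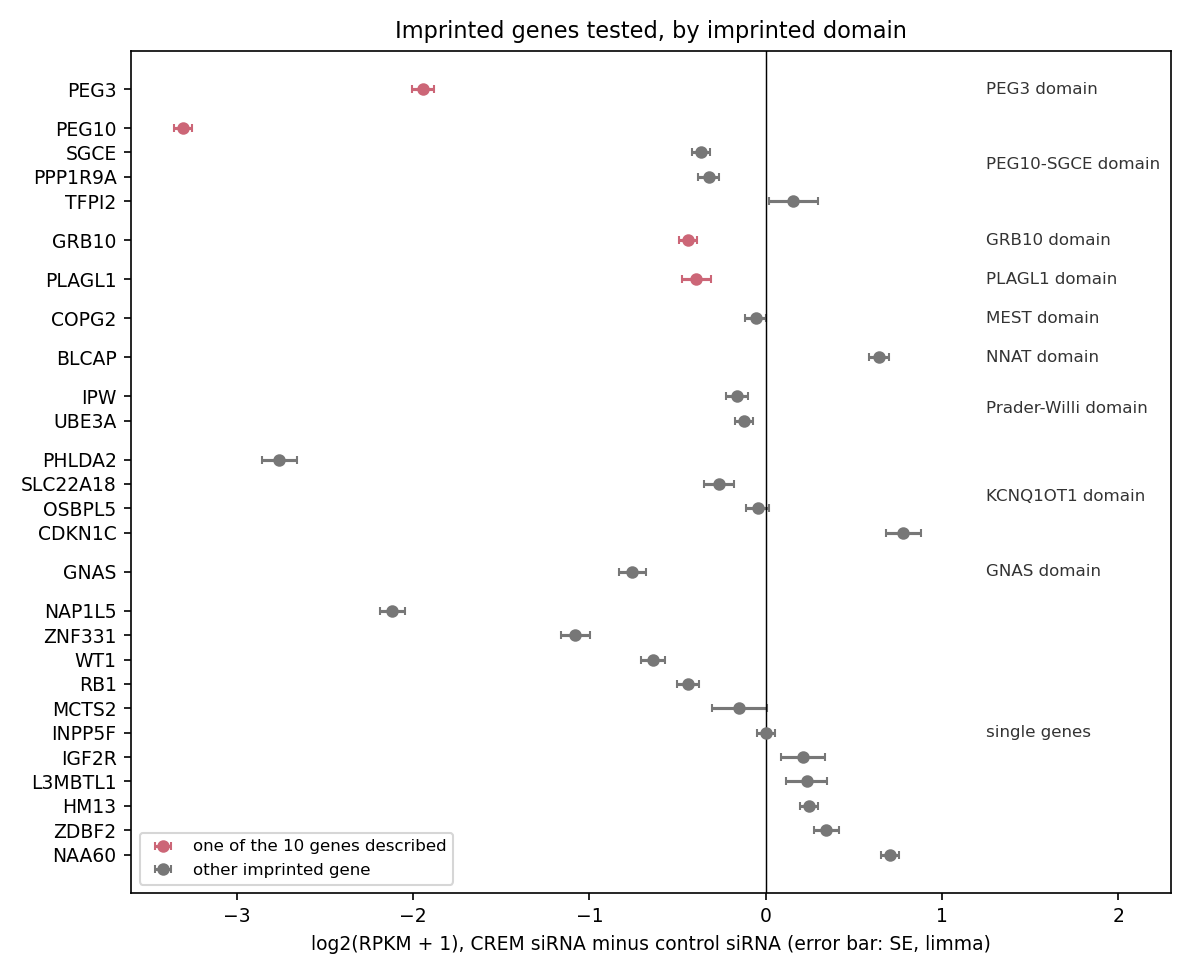
Difference in log2(RPKM + 1), CREM siRNA minus control siRNA, with its standard error from limma, of the 27 imprinted genes tested, grouped by imprinted domain; red points are 4 of the 10 genes described and grey points the other imprinted genes. PEG10, PHLDA2, NAP1L5 and PEG3 lie at or below -1.94, and CDKN1C, NAA60 and BLCAP are the highest at 0.64 to 0.78.

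Genes that keep or read the imprint were counted from a list of 20, of which 16 had a row and 13 were tested, and 4 rose, 8 fell and 1 did not pass (92.3% called, beside 73.4% of all genes), with a median of -0.42. DNMT1, which copies methylation onto new DNA strands, fell from 37.3 ± 0.819 to 11.0 ± 0.457 RPKM (SD, n = 3 each; log2 difference -1.67, adjusted p = 2.23e-10). UHRF1, which recruits DNMT1 to hemimethylated DNA, fell from 4.34 ± 0.0145 to 0.208 ± 0.0208 RPKM (SD, n = 3 each; 20.9-fold lower, log2 difference -2.14). HELLS, a remodeller that DNA methylation needs, fell from 7.11 ± 0.465 to 0.894 ± 0.140 RPKM (SD, n = 3 each; 7.95-fold lower, log2 difference -2.10). The log2 differences of UHRF1 and HELLS are made small by the pseudocount of 1. UHRF1 and HELLS passed the filter only through the control libraries. So did DNMT3B (2.29 and 0.860 RPKM), named after its values were seen, and all of these are counted among the 8 that fell. DNMT1, UHRF1 and HELLS are also known to be high in dividing cells, and the proliferation markers fell beside them.

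Among the 4 that rose was ARID4A. ARID4A, a chromatin protein needed for imprinting in mice, rose from 4.29 ± 0.249 to 13.9 ± 0.443 RPKM (SD, n = 3 each; log2 difference 1.49, adjusted p = 1.94e-09). Its paralog ARID4B rose by 0.26 (adjusted p = 0.000960) and SETDB1, the histone methyltransferase that silences imprinted copies with TRIM28, by 0.44 (adjusted p = 3.04e-05). DNA methylation was not measured, and these libraries give RNA levels only.

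Known partners and targets of the 10 genes were all in the tables. Of 20 genes 18 were tested, of which 7 rose, 7 fell and 4 did not pass (77.8% called, beside 73.4%), with a median of -0.01. E2F1, which the NDN protein binds, fell from 16.8 ± 0.164 to 2.04 ± 0.0981 RPKM (SD, n = 3 each; log2 difference -2.55, adjusted p = 2.58e-11), EZH2, the Polycomb enzyme that MEG3 RNA binds, fell by 1.54 on the log2 scale (adjusted p = 2.32e-09), and MAGED1, a MAGE protein partner of NDN, fell by 0.44 (adjusted p = 1.22e-05; -0.10 and adjusted p = 0.0966 when scaled by reference genes). IGF2BP2, one of the proteins that binds H19 and IGF2 RNA, rose from 60.5 ± 2.03 to 103 ± 1.14 RPKM (SD, n = 3 each; log2 difference 0.76, adjusted p = 5.95e-08). Of the insulin receptor substrates, which signal from the receptors that GRB10 dampens, IRS2 rose by 0.83 (adjusted p = 3.99e-05 in limma). IRS1 was at 0.988 ± 0.0435 and 2.39 ± 0.174 RPKM (SD, n = 3 each; 2.42-fold higher, log2 difference 0.77 with the pseudocount of 1). It is counted among the 7 that rose, although it passed the filter only through the CREM siRNA libraries. The receptors themselves, INSR and IGF1R, named after their values were seen, fell by 0.29 (adjusted p = 0.00234) and 0.26 (adjusted p = 0.00875) on the log2 scale. Neither call held when scaled by GAPDH (adjusted p = 0.250 and 0.444) or by reference genes (adjusted p = 0.938 and 0.610), where the sign of IGF1R turned to 0.05. Among the protein partners of PEG3, named here after their values were seen, SIAH1 and TRAF2 fell by 0.48 (adjusted p = 4.37e-05) and 0.58 (adjusted p = 1.26e-05) on the log2 scale, and BAX was at 50.2 ± 3.92 and 52.1 ± 2.53 RPKM (SD, n = 3 each; adjusted p = 0.442).

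Relatives of PEG10 and GRB10 by sequence moved in both directions. Of 13 such genes 10 had a row and 8 were tested, of which 5 rose, 2 fell and 1 did not pass (87.5% called and 62.5% higher, beside 73.4% and 36.6% of all genes), with a median of 0.31. RTL9, a gag-derived gene like PEG10, was at 0.272 ± 0.0857 and 1.82 ± 0.233 RPKM (SD, n = 3 each; 6.69-fold higher, log2 difference 1.15 with the pseudocount of 1). It is counted among the 5 that rose, although it passed the filter only through the CREM siRNA libraries, so its p-value is not given. RTL6 rose by 0.47 (adjusted p = 0.000174), and RTL8B by 0.35 (adjusted p = 7.62e-05), although reads of RTL8B can be shared with its near-identical copies RTL8A and RTL8C. LDOC1, of the same gag-derived family, fell by 0.52 on the log2 scale (adjusted p = 1.07e-05), and RTL10 was at 2.90 ± 0.218 and 2.41 ± 0.0268 RPKM (SD, n = 3 each; log2 difference -0.19, adjusted p = 0.0227). The RTL10 call was lost without the control library 1 or 2 (adjusted p = 0.0535 and 0.104) or the CREM siRNA library 2 or 3 (0.0593 and 0.0526), and its sign turned to 0.06 when scaled by reference genes.

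Paralogs of 2 of the 10 genes showed shifts in ratio. GRB14, an adaptor of the GRB10 family, rose from 1.28 ± 0.0256 to 2.22 ± 0.354 RPKM (SD, n = 3 each; log2 difference 0.49, adjusted p = 0.000342), and the ratio of GRB10 to GRB14 was 22.5, 22.9 and 21.6 with control siRNA and 8.58, 8.32 and 11.7 with CREM siRNA. PLAGL2, the paralog of PLAGL1, was at 3.06, 2.98 and 3.62 times the RPKM of PLAGL1 with control siRNA and at 8.55, 7.14 and 8.15 times with CREM siRNA. PLAGL2 itself rose from 4.99 ± 0.206 to 7.52 ± 0.795 RPKM (SD, n = 3 each; log2 difference 0.50, adjusted p = 9.45e-05 in limma). GRB10 and PLAGL1 were chosen on this comparison, so both ratios partly restate their falls and nothing is read from the shifts. Among 19 protein-coding genes named ZSCAN, the family with the SCAN domain that PEG3 also has, 12 were tested, of which 7 rose and 2 fell (75.0% called and 58.3% higher, beside 73.4% and 36.6% of all genes). The 2 of highest level, ZSCAN32 (7.35 and 10.7 RPKM, adjusted p = 1.8e-05) and ZSCAN29 (6.38 and 9.81 RPKM, adjusted p = 3.35e-05), both rose. Among 27 protein-coding genes named MAGE, the family of NDN, 11 were tested, of which 3 rose and 3 fell (54.5% called). MAGED2, the second highest of them, rose from 97.0 to 108.7 RPKM (log2 difference 0.16, adjusted p = 0.0251). That call was lost without control library 1 or 2 (adjusted p = 0.0524 and 0.110) or CREM siRNA library 1 or 3 (0.0501 and 0.104).

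The genes whose pattern over the 6 libraries was most like that of PEG3 were SEC23A, JADE1, UGCG, PRR11 and BRSK2, with Pearson r of log2(RPKM + 1) of 0.9996 to 0.9999 among 8648 genes that averaged 5 RPKM or more. PEG10 came 70 in that order with r of 0.9991. The 6 libraries form 2 groups, so r mostly restates the difference between them: 2265 genes had r above 0.95.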

How the data were processed

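CHL-1 cells were given 50 nM control siRNA or CREM siRNA for 48 h, and mRNA was sequenced in 3 libraries per group. The authors deposited CPM (counts scaled per library) and RPKM (the same CPM divided by 1 length per gene) for 21625 genes. The CPM columns sum to between 973557 (CREM siRNA 2) and 1007039 (CREM siRNA 1), which plain division by library size does not give. A further factor per library is thus in the values, and the median difference of 0.00 was obtained with it in place. R 3.6.1 and hg38 appear in the submitters' processing notes. The methods state a normalization by GAPDH, but GAPDH is not constant in either table. No source used here gives the aligner, the counter or the use of strand. In the deposited CPM, 100% of values were whole reads within 0.001 of a read.

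Differences were fitted with limma 3.58.1 (R 4.3.3, trended and robust eBayes) on log2(RPKM + 1). The pseudocount of 1 makes the differences of genes of a few RPKM smaller than their fold in RPKM. Tested were 12407 genes that averaged 1 RPKM or more, with p-values adjusted by Benjamini-Hochberg over these genes at 0.05. The fit was tested on simulated data. Alternatives were the CPM table, edgeR 4.0.16 and DESeq2 1.42.0 on whole reads, other pseudocounts (0.1, 0.5), dropping the filter or raising it to 5 RPKM, an equal-variance test, a replicate block, omission of each library, and scaling by the median ratio, GAPDH or other reference genes. edgeR called 5428 genes higher and 5260 lower of 14770.

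The 10 genes and all lists were chosen with earlier results of these data known. Besides the 10 genes, the text names imprinted genes of their domains with at least 10 reads or 0.1 RPKM in a library, the 3 lowest adjusted p in each direction of the remaining lists, the 5 genes most correlated with PEG3, the 2 highest ZSCAN and MAGE genes, and CREM and GAPDH. Genes outside this rule are named in the text as such or as markers, neighbours or paralogs. Coordinates are those of RefSeq (GRCh38.p14), matched by Entrez ID, with the strand from GENCODE. No fold change is given for genes at 0.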

Additional observations from a re-analysis of the deposited data

How the results depend on the processing

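PEG3, PEG10 and GRB10 kept their direction in all settings tried, with GRB10 weakest when scaled by reference genes (-0.10). PLAGL1 kept its direction in all settings that tested it, since it did not reach the filter of 5 RPKM. These genes were chosen on this comparison, so the settings only describe how far their values move. With that filter 14 other imprinted genes were tested, of which 3 rose and 6 fell. Scaled by GAPDH, 5810 genes rose and 2969 fell over all genes, and 8 and 6 of the other imprinted genes. Scaled by reference genes, 7570 rose and 2521 fell, and 12 and 5 of the other imprinted genes. The sign turned for IPW (0.13), UBE3A (0.21), COPG2 (0.27), RTL10 (0.0616), SLC22A18 (0.0559), IGF1R (0.0465), ZNF542P (0.29) and ZNF71 (0.0039), which follows from the shift of all genes by 0.31. Of these, UBE3A, COPG2 and ZNF542P passed as higher. Leaving out each library in turn gave 4233 to 4507 genes higher and 4190 to 4437 lower, and 5 to 6 higher and 8 to 10 lower of the other imprinted genes. Without replicate 3 of both groups, an alternative chosen after seeing the data, these were 4343, 4322, 6 and 9. In edgeR 7 of 27 other imprinted genes rose and 11 fell, and in DESeq2 7 and 10 of 33. With the replicate block 4853 genes rose and 4812 fell, and 7 and 11 of the other imprinted genes. Samples of the same number correlated in their deviations from the group mean at r = 0.27, -0.04 and 0.14, and CREM siRNA 2 was closest to control siRNA 3 (r = 0.19), so not every pair exceeded 0.1. The CPM headers number the columns Exp1 to Exp3 in both groups, and the RPKM headers number ctrlserum and cremserum columns in the same way. Neither they nor the labels say what libraries of the same number share, so the block was kept as an alternative. Depth limits what can be said of the genes with few reads, such as NDN and PEG3-AS1.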

Other observations

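PMEL, the pigment fibril protein gene, stood out by library rather than by group. It had 31, 42 and 130 reads in the control siRNA libraries 1 to 3 and 31, 56 and 585 in the CREM siRNA libraries 1 to 3, and the groups overlapped (log2 difference 0.53, adjusted p = 0.624 in limma). IGF2R, the receptor that clears IGF2 and is imprinted in mice, was at 48.8, 42.0 and 37.5 RPKM with control siRNA and at 57.7, 44.1 and 47.3 RPKM with CREM siRNA, highest in library 1 of either group, and did not differ beyond this spread (log2 difference 0.21, adjusted p = 0.174). Both genes were chosen after their values were seen.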
